A study of Mus musculus with 36 samples.

Results

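The immediate early genes considered here were Fos, Jun, Junb, Atf3, Egr1, Ier2, Ier3, Ier5, Dusp1 and Zfp36, picked by gene symbol as textbook examples of genes with short-lived mRNAs. All 10 were found in each of the 6 tables, out of 18419 genes listed in all 6 and 22979 listed in any of them. The samples were 36 SLAM-seq libraries from mouse embryonic stem cells. In SLAM-seq, 4-thiouridine (4sU) is built into new RNA and read as T-to-C conversions, so that RNA made during the labelling pulse can be told from older RNA. The cells were Cast x 129S, with the Xist promoter on the 129S allele replaced by a doxycycline-driven TetOn promoter (Xist type "Endogenous Xist + Bgl"), and they were grown on mitomycin-inactivated mouse fibroblast feeders that were removed by preplating before the experiment. Each of 3 lines carried an FKBP12F36V degron on a different protein and was 1 clone: METTL3 (clone 12D), which writes the m6A mark on mRNA; YTHDC1 (clone Y12H), a nuclear reader of m6A; and ZCCHC8 (clone Z12H), part of the NEXT complex, through which short-lived nuclear RNAs reach the exosome and are broken down. In the dTAG arm the degron was triggered by dTAG-13 added 2 h before doxycycline, and in the Ctrl arm it was not. Both arms received 1 µg/ml doxycycline for 20 h, then 500 µM 4sU with doxycycline for 4 h, then 50 mM uridine with doxycycline for 0, 90 or 180 min, the chase. This gave 18 groups of 2 replicates. The study's reporting notes describe independent clones or repeats of a clone for RNA-seq, with the wells of a repeat taken from a common batch of cells, and do not name SLAM-seq. Each line here was a single clone, so p-values measure only the spread between its libraries.

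Immediate early genes are switched on within minutes of a signal such as serum, growth factors or stress, through transcription factors that are already in the cell, with no need for new protein. Many encode transcription factors that carry the response forward, and others shut it down again. Their mRNAs decay quickly, in several cases through AU-rich elements in the 3′ UTR, whose core is the pentamer ATTTA. In embryonic stem cells the ERK pathway, which drives many of them, also acts in the exit from pluripotency.

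Stretches of the 3′ UTRs with ATTTA are shown first, as an element known from such mRNAs. In the representative transcripts, all on mouse GRCm38, the 3′ UTRs held 5 ATTTA pentamers in Ier3, 4 each in Dusp1, Fos and Jun, 3 each in Atf3 and Zfp36, 2 each in Junb, Ier5 and Egr1, and none in Ier2. Over 16341 genes with an annotated 3′ UTR, 65.6% held at least 1 ATTTA. The longer form TATTTAT, held by 27.2% of those genes, was found 4 times in Ier3, 3 times each in Dusp1 and Zfp36, 2 times in Fos and 1 time each in Atf3 and Jun. GGACT, a common form of the motif that METTL3 methylates, was in 59.2% of 3′ UTRs and in those of all 10 members, with 4 copies in Ier2. These are letters in a window and not measured sites. The lines below give 1 stretch of 30 bases from the 3′ UTR of 8 members, read on the gene's strand, with each ATTTA in capitals.

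Ier3: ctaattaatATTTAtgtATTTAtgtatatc
Dusp1: agctggtccttATTTATTTAacacccccct
Fos: tATTTAttaagatggattctcagatATTTA
Jun: gatcATTTAtaatcataggaaagATTTAgt
Zfp36: ccctttATTTAtgacgactttATTTAttgt
Atf3: caccaattccaggATTTAggccttatcatc
Junb: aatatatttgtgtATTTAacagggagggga
Ier5: ggaggttggctaaATTTAattctcatgtag

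The stretches lie in the last or only exon at chr17:35822484-35822513 on the plus strand for Ier3, chr17:26506157-26506186 on the minus strand for Dusp1, chr12:85477114-85477143 on the plus strand for Fos and chr4:95049208-95049237 on the minus strand for Jun. Those of Zfp36 (chr7:28376959-28376988), Atf3 (chr1:191171242-191171271), Junb (chr8:84977127-84977156) and Ier5 (chr1:155096847-155096876) are on the minus strand. In Dusp1 the 2 pentamers overlap, and in Ier3, Fos, Jun and Zfp36 a single stretch holds 2 of them.

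Promoters from RefSeq (GRCm38.p6, 250 bases before to 50 after the start) were matched for 8 members, and 4 motifs were searched in them: the TATA box and 3 elements known from signal-driven promoters. The stretch before the start is shown for the 3 members with a match there, to show which letters each carries. The capitals mark TATAAA in Fos, the cAMP response element TGACGTCA in Dusp1 and the CArG box bound by serum response factor in Zfp36. TATAAA was searched on the gene's strand and the others on both strands.

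Fos: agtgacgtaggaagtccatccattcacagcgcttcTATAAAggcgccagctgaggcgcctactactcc
Dusp1: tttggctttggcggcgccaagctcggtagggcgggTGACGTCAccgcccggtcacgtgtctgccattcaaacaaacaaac
Zfp36: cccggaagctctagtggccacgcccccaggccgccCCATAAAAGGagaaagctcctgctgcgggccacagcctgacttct

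They span chr12:85473822-85473889 (plus strand), chr17:26508571-26508650 (minus strand) and chr7:28379242-28379321 (minus strand). Over 32851 promoters, TATAAA was in 8.32%, with Fos and Junb among the 8 members, TGACGTCA in 1.79% and the CArG box in 1.63%. TGANTCA, the site of AP-1, was in 7.81% of all promoters and in none of the 8.

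The depth of the libraries ran from 5274684 to 18652000 reads counted on genes, and it was lowest in the ZCCHC8 line (5274684 to 10257631). Levels are given as CPM, each gene's reads scaled to a common library size set over the 36 libraries together. Stem cell markers were high, with the 8 markers together at 2413 to 3830 CPM, and 8 fibroblast markers were together at 6.02 to 29.1 CPM, with Lum alone at 0 in every Ctrl library of the METTL3 line. The mRNA of the degron-tagged gene is no check of the protein: dTAG against Ctrl gave a log2 fold change of 0.01 for Mettl3, 0.60 for Ythdc1 and 0.07 for Zcchc8, with adjusted p = 0.942, 0.00487 and 0.436 by edgeR's quasi-likelihood test.

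Per kilobase of gene length, Ier2, a nuclear regulator of transcription, had the highest median over the 6 Ctrl libraries in every line, at 25.7 CPM per kb in METTL3, 40.5 in YTHDC1 and 37.6 in ZCCHC8. This put Ier2 above 77.2% to 85.1% of 13630 expressed genes. The AP-1 family members came next. Their medians were 7.05 to 12.7 CPM per kb for Junb, 7.56 to 9.54 for Fos, 7.08 to 9.36 for Jun and 6.76 to 8.29 for Atf3, and the Ctrl libraries of these 4 genes overlapped in every line, so no order among them can be read. Dusp1, a phosphatase that switches off MAP kinases, stood at 3.81 to 5.45 CPM per kb and Ier5 at 2.64 to 3.42. The lowest were Zfp36, a protein that binds AU-rich elements and brings about decay, at 1.02 to 2.15, Ier3, a regulator of survival under stress, at 1.16 to 1.50, and the zinc finger factor Egr1 at 0.456 to 1.51. Ier3 had 3 to 37 reads in a library and Egr1 13 to 141, and Zfp36 12 to 73, so these 3 carry the largest counting error.

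**Figure D1:**
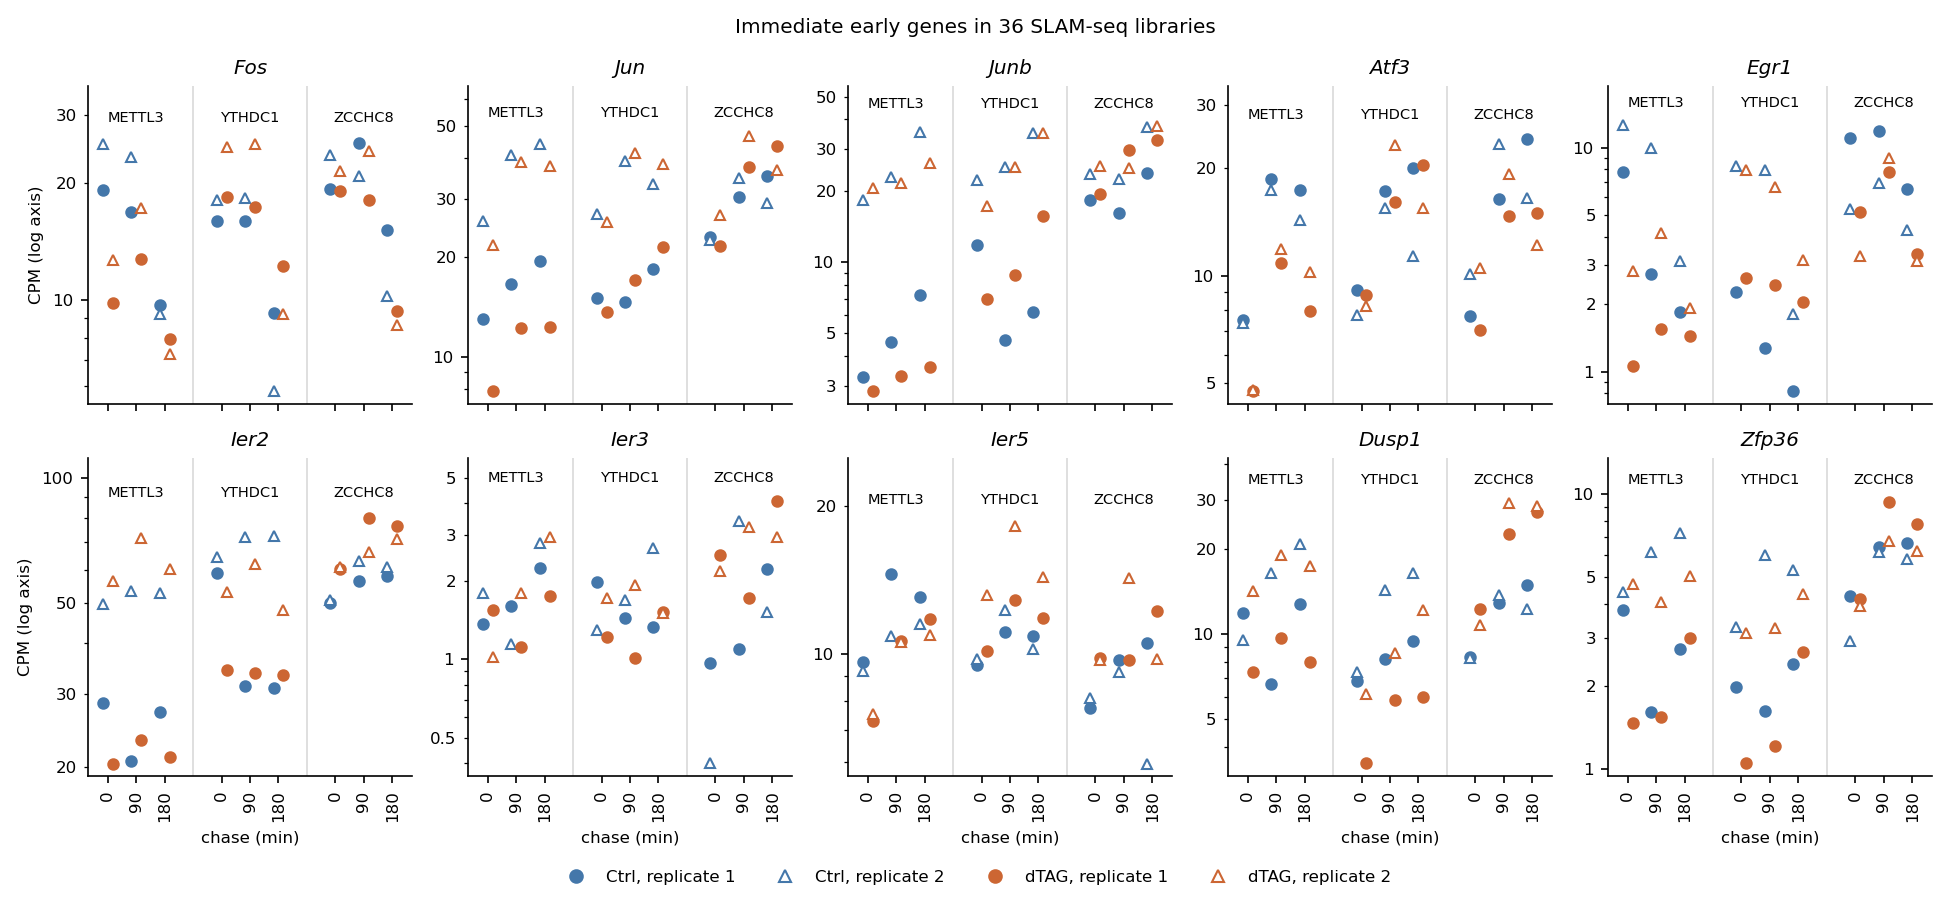
Level of each immediate early gene in the 36 libraries, in CPM on a log axis, by line and chase time (min) with Ctrl in blue and dTAG in orange, circles for replicate 1 and triangles for replicate 2. Fos was lowest at 180 min in all 3 lines, Atf3 was lowest at 0 min, and Junb in the METTL3 line split by replicate, at 2.87 to 7.29 CPM in replicate 1 and 18.2 to 35.5 CPM in replicate 2.

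Several members differed between replicates in 2 of the 3 lines. In the METTL3 line Junb was at 2.87 to 7.29 CPM in the 6 libraries of replicate 1 and at 18.2 to 35.5 CPM in the 6 of replicate 2. The ranges of Jun (7.86 to 19.5 against 21.7 to 44.0), Ier2 (20.4 to 28.6 against 49.6 to 71.7) and Zfp36 (1.47 to 3.80 against 4.06 to 7.21) did not overlap either. The share of all genes without such overlap was not counted. The median absolute log2 difference between replicates was above that of 96.4% to 99.8% of 14413 genes for Junb, Jun, Ier2 and Zfp36. For Ier5 and Atf3 it was above that of only 2.4% and 5.8%. With replicate in the edgeR fit, 6 members of the METTL3 line and 7 of the YTHDC1 line were higher in replicate 2 and none lower, where 32.5% and 30.4% of all genes were higher. In the ZCCHC8 line only Junb passed (log2 difference 0.32, adjusted p = 0.0224), where 9.32% of all genes were called in either direction. The fibroblast markers were higher in replicate 2 as well. Their sum was 9.21 to 18.1 CPM in replicate 1 and 15.1 to 29.1 in replicate 2 of METTL3, 6.02 to 11.6 and 13.9 to 19 in YTHDC1, and 16.4 to 20.9 and 19.9 to 24.7 in ZCCHC8. The stem cell markers together were at 2768 to 3552 CPM in replicate 1 and 2413 to 2706 in replicate 2 of METTL3, at 2992 to 3830 and 2599 to 2923 in YTHDC1, and the other way round, at 2864 to 3116 and 3005 to 3348, in ZCCHC8. The part of either in the replicate difference was not tested. In such bulk samples, fewer cells of a type and less RNA per cell cannot be told apart. Because the replicates differed this much, each test below was also run with the replicate as a block, and the blocked value is given where it changes a call.

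The first comparison asked how the level of each mRNA changed during the chase, over both arms. Fos fell by 180 min in all 3 lines and Atf3 rose by 90 min in all 3, both without overlap between the times. How many of all genes showed no overlap between times was not counted, here or below. Dusp1, Zfp36, Jun and Junb, which include both feedback regulators, rose by 180 min in the ZCCHC8 line.

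Fos encodes the AP-1 partner of Jun. In the METTL3 line it was at 19.2 and 25.2 CPM in Ctrl and 9.83 and 12.7 in dTAG at 0 min, at 16.8 and 23.3 in Ctrl and 12.7 and 17.2 in dTAG at 90 min, and at 9.69 and 9.21 in Ctrl and 7.95 and 7.27 in dTAG at 180 min. Each library at 180 min was below each at 0 min, while 90 min overlapped with 0 min. In the YTHDC1 line Fos was at 15.9 to 24.8 CPM in the 4 libraries at 0 min, 15.9 to 25.1 at 90 min and 5.81 to 12.2 at 180 min, and in the ZCCHC8 line at 19.1 to 23.6, 18.1 to 25.4 and 8.63 to 15.1. The log2 fold change of Fos from 0 to 180 min was -0.95 (SE 0.21, adjusted p = 0.0122) in METTL3, -1.09 (SE 0.18, adjusted p = 0.000771) in YTHDC1 and -0.95 (SE 0.14, adjusted p = 2.94e-06) in ZCCHC8. From 0 to 90 min it was 0.10, -0.01 and 0.11, none of them called.

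Atf3, a stress-induced factor of the same bZIP class, took the opposite course. In the METTL3 line it was at 7.50 and 7.36 CPM in Ctrl and 4.75 and 4.78 in dTAG at 0 min, and at 18.7 and 17.4 in Ctrl and 10.9 and 11.9 in dTAG at 90 min. At 180 min it was at 17.4 and 14.3 in Ctrl and 7.95 and 10.2 in dTAG. Every later library of the line was above every library at 0 min. The same held in YTHDC1 (7.76 to 9.11 CPM at 0 min, 15.5 to 23.2 at 90 min, 11.3 to 20.5 at 180 min) and in ZCCHC8 (7.05 to 10.5, 14.7 to 23.4 and 12.2 to 24.1). The log2 fold change of Atf3 at 90 min was 1.25 (SE 0.14, adjusted p = 0.00835), 1.08 (SE 0.19, adjusted p = 0.00819) and 1.08 (SE 0.18, adjusted p = 0.000221) in the 3 lines in this order, and at 180 min it was 0.98, 0.98 and 0.93. Atf3 was the only member called at 90 min in METTL3 and YTHDC1, where 0.243% and 6.63% of all genes were called.

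In the ZCCHC8 line 5 members rose by 90 min, where 15.6% of all genes rose, and by 180 min 7 members rose and Fos fell, where 30.7% of genes rose and 29.8% fell. Dusp1 was at 8.32 and 8.26 CPM in Ctrl and 12.3 and 10.8 in dTAG at 0 min, and at 12.9 and 13.8 in Ctrl and 22.7 and 29.1 in dTAG at 90 min. At 180 min Dusp1 was at 14.98 and 12.3 in Ctrl and 27.1 and 28.4 in dTAG. Within each arm every later library was above both at 0 min. The log2 fold change of Dusp1 was 1.00 (SE 0.13) at 90 min and 1.04 (SE 0.13) at 180 min, with 0.91 and 0.82 for Zfp36 and 0.70 and 0.63 for Jun, and Zfp36 and Jun at both times did not overlap with 0 min. Junb rose at 180 min (0.59, SE 0.16, adjusted p = 0.00393), Ier2 by 0.27 at both times, and Ier3 at 180 min (0.84, SE 0.36, adjusted p = 0.0485). The call for Ier3 was lost with DESeq2 (adjusted p = 0.0711). With a replicate left out each group held 1 library, so whether the calls for Ier3 and Ier2 hold in each replicate cannot be tested.

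The other lines gave fewer calls at 180 min. In simulated data with 200 changed genes this test recovered 31% of them in METTL3, 66% in YTHDC1 and 91.5% in ZCCHC8. The numbers of calls therefore cannot be compared between lines. In METTL3, Ier5, a regulator of the heat shock response, rose beside Atf3 (log2 fold change 0.46, SE 0.14, adjusted p = 0.0436), with 7.29 to 9.62 CPM at 0 min and 10.9 to 13.1 at 180 min and no overlap. With no filter on low counts this call was lost (adjusted p = 0.12). In YTHDC1, Dusp1 rose beside Atf3 (0.88, SE 0.29, adjusted p = 0.0287), from 3.50 to 7.33 CPM to 6.01 to 16.4, and these ranges overlapped. These were 2 members up and 1 down in each line, where 10.3% and 23% of genes rose and 5.84% and 18% fell. The members' median log2 fold change at 180 min was 0.44 in METTL3, 0.30 in YTHDC1 and 0.61 in ZCCHC8, beside -0.05, -0.01 and -0.01 over all genes tested.

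The replicate block added calls in the 2 lines whose replicates stood apart. At 90 min Jun and Ier5 were then called in METTL3 (log2 fold change 0.62 and 0.45), and Jun, Ier5 and Dusp1 in YTHDC1 (0.41, 0.35 and 0.62), where 10.1% and 32.9% of genes were called with the block. In ZCCHC8 Egr1 was added (0.64, adjusted p = 0.00965, and 0.064 without the block), where 31.2% were called. At 180 min Egr1 was at -1.42 (adjusted p = 0.00255) in METTL3, -1.41 (8.26e-05) in YTHDC1 and -0.47 (0.0597) in ZCCHC8 with the block, and at -1.28, -1.47 and -0.46 with adjusted p = 0.143, 0.0777 and 0.148 without it. In edgeR Egr1 thus passed in METTL3 and YTHDC1 with the block and not without it. The 180 min calls of METTL3 then also held Jun (0.68), Junb (0.66) and Ier3 (0.74), and those of YTHDC1 Jun (0.46) and Zfp36 (0.64), where 47.3% and 67.2% of genes were called.

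**Figure D2:**
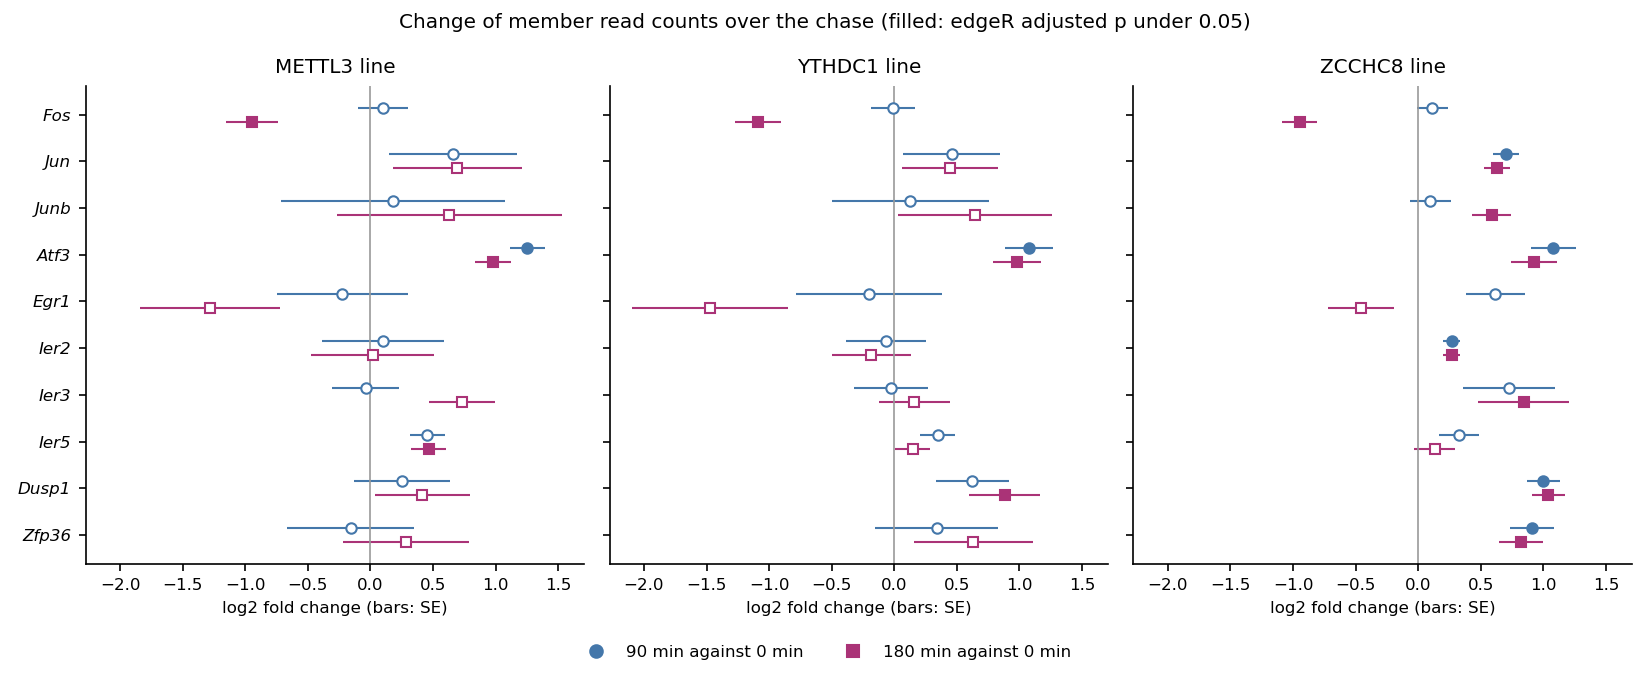
Log2 fold change of each immediate early gene from 0 min to 90 min (circles) and to 180 min (squares) of the chase in each line, with bars of 1 SE and filled symbols for an adjusted p under 0.05 in the edgeR fit without a replicate block. Fos at 180 min lies between -1.09 and -0.95 and Atf3 at 90 min between 1.08 and 1.25 in the 3 lines.

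Time in the chase, the change of medium, the removal of 4sU and the share of labelled RNA changed together, so their effects on these levels cannot be told apart.

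The second measure was the new-to-total ratio, the share of a gene's RNA that carries label, as estimated by GRAND-SLAM and deposited as the maximum a posteriori value (MAP). At 0 min the members were nearly fully labelled: their Ctrl values ran from 0.739 to 1 in METTL3, 0.784 to 1 in YTHDC1 and 0.870 to 1 in ZCCHC8. Over all genes with at least 100 reads in every library of the line, the Ctrl median was 0.599, 0.576 and 0.517. At 180 min the members' median ratio in Ctrl was 0.223, 0.198 and 0.357, beside 0.447, 0.406 and 0.524 over those genes. The members' median was thus above that of the other genes at the start of the chase and below it at the end.

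The depth sets how well each ratio is known. For Ier2 in replicate 1 of METTL3 Ctrl, with 271 reads, the ratio at 0 min was 0.810 with a 90% credible interval of 0.755 to 0.857. For Ier3 in the same library, with 13 reads, it was 0.846 with an interval of 0.589 to 0.955. The interval of Ier3 holds the ratio of Ier2.

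Among the members with at least 20 reads in every library, Junb had the lowest Ctrl mean at 0 min in METTL3 (0.817) and YTHDC1 (0.793), and Zfp36 (0.915) in ZCCHC8, where Junb was at 0.931. Fos was at 0.973, 0.929 and 0.995 in the 3 lines. Dusp1, Ier2 and Junb lost label fast. In METTL3 the Ctrl mean for Dusp1 went from 0.894 to 0.389 and 0.176 over the 3 times, a slope of -0.78 on the log2 scale per hour, and only 0.2% of 11366 genes with at least 20 reads in every library fell faster. Ier2 in YTHDC1 went from 0.902 to 0.350 and 0.151, and Junb in ZCCHC8 from 0.931 to 0.437 and 0.255. Of these members Atf3 fell slowest in METTL3, from 0.901 to 0.637 and 0.351, with 8.4% of genes faster. In ZCCHC8 Egr1 was slower still, from 0.967 to 0.612 and 0.518, with 11.1% of genes faster. At this minimum 7, 7 and 9 members could be ranked in the 3 lines, and for none of them did more than 11.1% of genes fall faster.

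**Figure D3:**
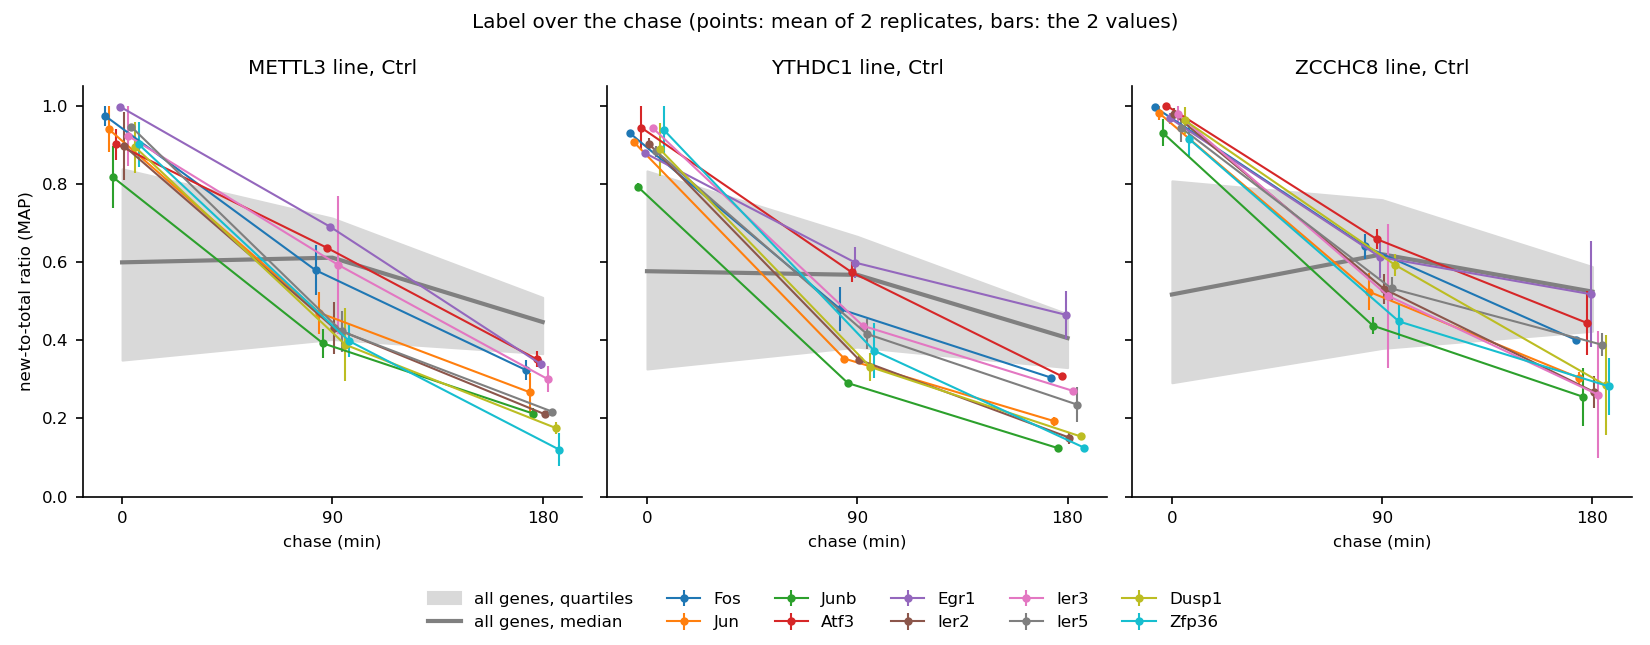
New-to-total ratio (MAP) of the immediate early genes against chase time (min) in the Ctrl arm of each line, as the mean of 2 replicates with bars joining the 2 values, beside the median (line) and quartiles (band) of all genes with at least 100 reads in every library. The members start between 0.793 and 1, and at 180 min the members' median of single values (0.223, 0.198 and 0.357) lies below the median of all genes, which is 0.447, 0.406 and 0.524.

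Expressed as a half-life of the labelled share, the median over the members in Ctrl was 94.5 ± 9.78 min in METTL3, 85.8 ± 9.50 min in YTHDC1 and 122 ± 31.1 min in ZCCHC8 (mean ± SD, n = 2 replicates). Single genes ran from 76.6 ± 1.38 min for Dusp1 to 132 ± 2.69 min for Atf3 in METTL3, leaving out Zfp36, Ier3 and Egr1 with their few reads. In YTHDC1 Junb was at 67.2 ± 1.27 min, Ier2 at 69.8 ± 6.52 min and Fos at 112 ± 3.76 min. This half-life is that of the label in the pool. It equals the half-life of the mRNA only where the level is constant and no more label is built in during the chase. A constant level did not hold for Fos and Atf3 in any line, for 8 of the 10 members at 180 min in ZCCHC8, for Ier5 in METTL3 or for Dusp1 in YTHDC1. With the replicate block, Egr1, Jun, Junb and Ier3 in METTL3 and Egr1, Jun and Zfp36 in YTHDC1 also changed by 180 min. At 90 min the blocked calls also held Ier5 in YTHDC1 and Egr1 in ZCCHC8. For the other members a constant level was not shown. Computed instead from the 0 min ratio at steady state, over the 8, 8 and 6 members that allow it, the medians were 69.6, 72.5 and 51.6 min. Left out were members with a 0 min ratio of 1 in a Ctrl replicate, for which it gives no value. These were Fos and Ier3 in METTL3, Atf3 and Zfp36 in YTHDC1, and Fos, Ier3, Jun and Atf3 in ZCCHC8. The medians of the 2 methods are thus not over the same members. For all genes the median ratio did not fall between 0 and 90 min in METTL3 and ZCCHC8 Ctrl (0.599 at 0 min and 0.611 at 90 min, and 0.517 and 0.620). In ZCCHC8 the labelled reads of 14.4% of genes rose by 90 min. Whether label was still being built in was not tested, so these values are not given as half-lives of the mRNAs.

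Multiplying reads by the ratio splits each level into a labelled and an unlabelled part. In METTL3, labelled Fos was at 9.06 to 25.2 CPM at 0 min and 1.07 to 3.22 CPM at 180 min, and unlabelled Fos went from 0 to 1.03 CPM up to 5.30 to 6.88 CPM. These ranges did not overlap. Labelled reads fell by 180 min for 6 members in METTL3, all 10 in YTHDC1 and 8 in ZCCHC8, where 17.7%, 37.8% and 21.3% of all genes fell by limma on log2 CPM. For Fos the log2 fold change of labelled reads was -2.85 (SE 0.28), -3.16 (SE 0.25) and -2.30 (SE 0.18), against the -0.95, -1.09 and -0.95 of its total. Unlabelled reads rose by 90 min for 9, 9 and 10 members, where 17.8%, 33.3% and 24.8% of genes rose.

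The labelled reads of Atf3 at 90 min gave a log2 change of 0.62 (SE 0.30, adjusted p = 0.893), 0.26 (SE 0.21, adjusted p = 0.643) and 0.50 (SE 0.21, adjusted p = 0.105), so none passed, and no test set Atf3 against the other members. In ZCCHC8 labelled reads of Fos (-0.69), Ier2 (-0.60) and Junb (-0.95) fell by 90 min, 3 members where 16.7% of genes were called. That share counts both directions: labelled reads fell for 2.36% of genes and rose for 14.4%. Their median log2 change over all genes tested in ZCCHC8 was 0.13. No member passed at 90 min in METTL3 or YTHDC1, where 0 and 1.37% of genes were called by limma (0 of 14413 genes in METTL3, with 786 at an unadjusted p under 0.05). At an unadjusted p under 0.05 there were 3 and 4 members, and with the replicate block 4 and 8 were called, where 1.12% and 15.1% of genes were.

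**Figure D4:**
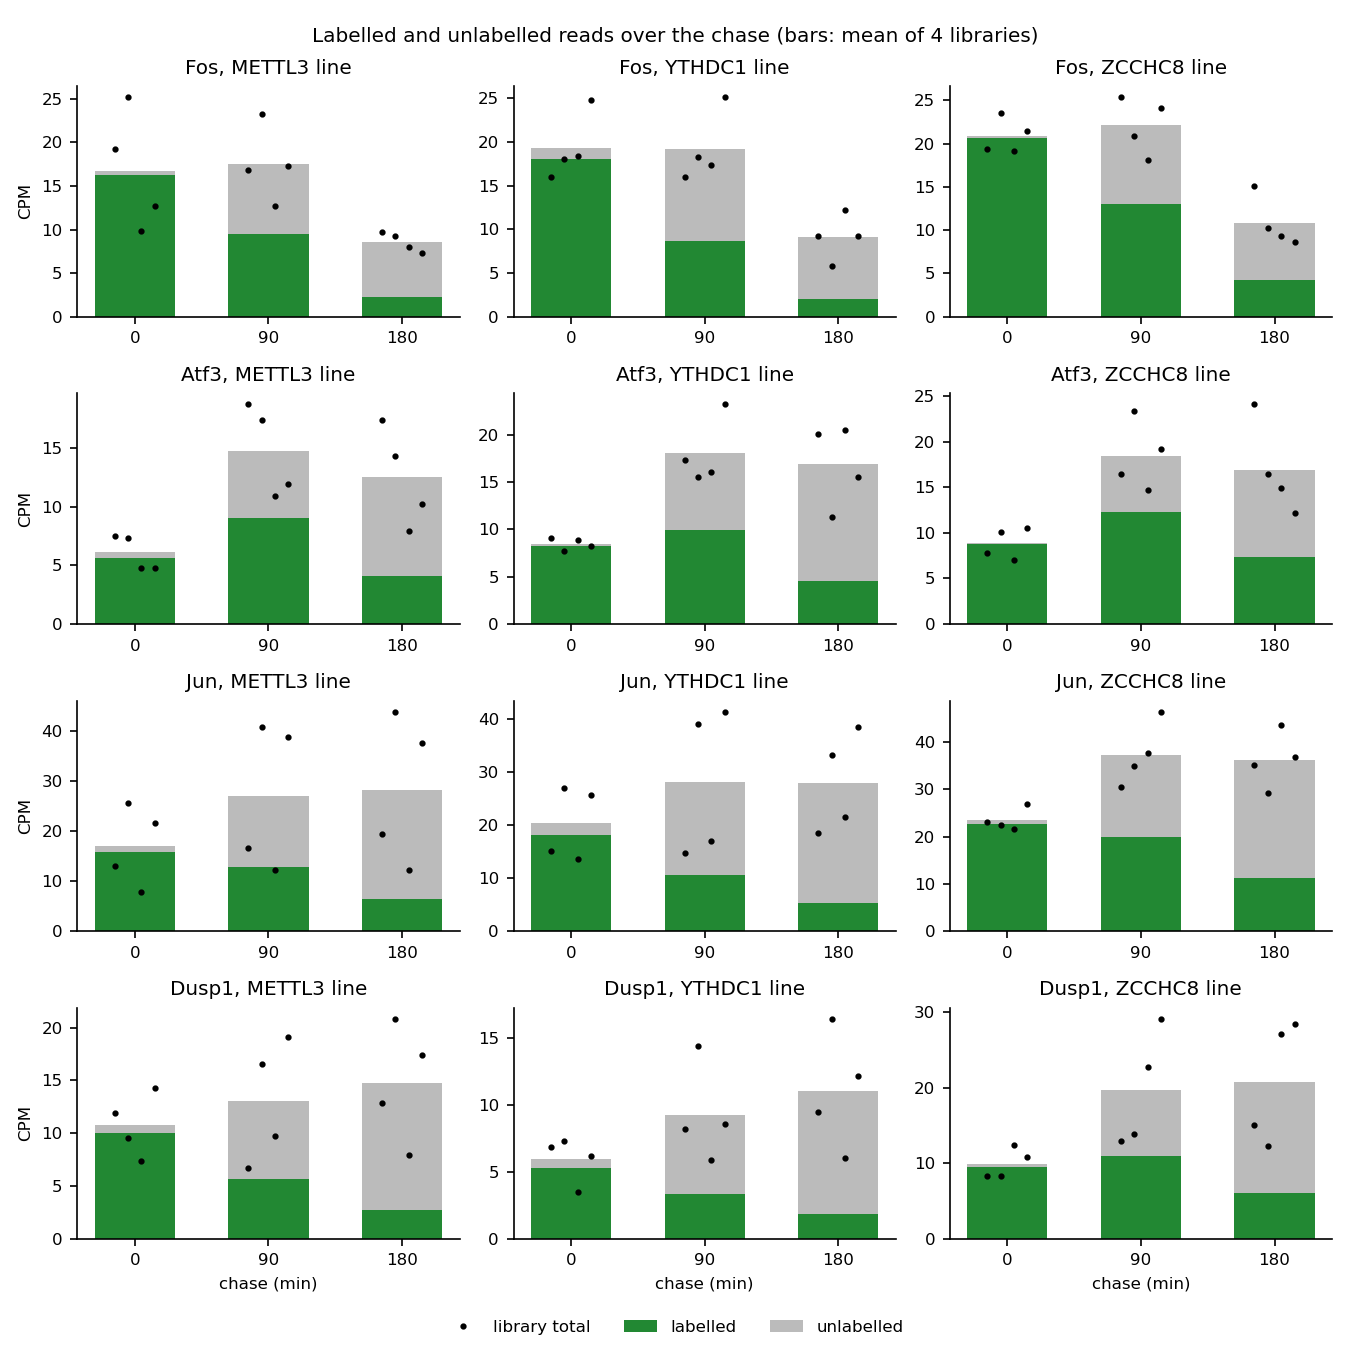
Labelled (green) and unlabelled (grey) parts of the level of Fos, Atf3, Jun and Dusp1 in CPM at each chase time (min) in each line, with bars stacked as the mean of 4 libraries and points for the library totals, from left to right Ctrl replicates 1 and 2 and dTAG replicates 1 and 2. In METTL3 labelled Fos goes from 9.06 to 25.2 CPM at 0 min to 1.07 to 3.22 CPM at 180 min.

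The third comparison set dTAG against Ctrl within each line, over the 3 chase times, and asked how loss of each protein changed these mRNAs. In METTL3, 2 members fell, in YTHDC1 none was called, and in ZCCHC8 5 rose. In simulated data with 200 changed genes this test recovered 60.5% of them in METTL3, 82.5% in YTHDC1 and 98% in ZCCHC8. These numbers of calls therefore cannot be compared between the lines. The members' median log2 fold change was -0.25, 0.05 and 0.33 in this order, beside 0.01, 0.01 and 0.00 over all genes tested.

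In the METTL3 line Atf3 and Fos fell, 2 members where 8.80% of genes fell. Atf3 was at 7.36 to 18.7 CPM (median 15.9) in Ctrl and 4.75 to 11.9 (median 9.09) in dTAG, and it was lower in dTAG in 6 of 6 pairs of the same time and replicate. Fos was at 9.21 to 25.2 CPM (median 18.02) in Ctrl and 7.27 to 17.2 (median 11.3) in dTAG, also lower in 6 of 6 pairs. Both pairs of ranges overlapped. Ier5 and Jun, not called in this fit, were also lower in 6 of 6 pairs. Same-numbered libraries deviated together, so the 6 pairs are not 6 independent repeats. How many of all genes went 1 way in every pair was not counted, here or below. The log2 fold change was -0.68 (SE 0.11, adjusted p = 0.0021) for Atf3 and -0.55 (SE 0.17, adjusted p = 0.0384) for Fos.

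Egr1 had a larger estimate in the same line. It was at 1.84 to 12.6 CPM (median 5.46) in Ctrl and 1.06 to 4.15 (median 1.73) in dTAG, lower in 6 of 6 pairs, at a log2 fold change of -1.39 (SE 0.45, adjusted p = 0.0513). With the replicate block it was -1.46 (SE 0.26, adjusted p = 0.000253) and passed, and so did Jun (-0.35, SE 0.10, adjusted p = 0.00875), where 24.1% of genes fell. Over the alternatives that keep both replicates, the adjusted p ran from 0.000253 to 0.0669 for Egr1 and from 0.00875 to 0.717 for Jun. At 0 min alone, Egr1 was at 7.82 and 12.6 CPM in Ctrl and at 1.06 and 2.82 in dTAG, which rests on 74 and 141 against 13 and 36 reads. The blocked fit gave -2.43 (SE 0.32, adjusted p = 0.000143) at 0 min, -1.08 (adjusted p = 0.0181) at 90 min and -0.57 (adjusted p = 0.354) at 180 min for Egr1, and -0.96, -0.40 and -0.30 for Fos, of which the first passed (adjusted p = 0.00392). In these fits 8.58%, 9.46% and 6.71% of genes were lower in dTAG at the 3 times. Whether the effect of dTAG differed between the times was tested by an interaction term in edgeR, which called 0 of 14413 genes in METTL3 (57 at an unadjusted p under 0.05) and no member in any line. In simulated data with 200 changed genes this test recovered 0% of them in METTL3, 35.5% in YTHDC1 and 81.5% in ZCCHC8. In METTL3 it therefore cannot decide whether the effect differed between the times. Without the block no member had an unadjusted p under 0.05, and with it Egr1 did in METTL3 (unadjusted p = 0.00414, adjusted p = 0.9997) and in ZCCHC8 (0.0331 and 0.661).

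Of the labelled reads in METTL3, Fos (-0.89), Atf3 (-0.86), Egr1 (-1.71) and Ier5 (-0.48) were lower in dTAG, with adjusted p = 0.0225, 0.0382, 0.043 and 0.0489 by limma, 4 members where 10.4% of genes fell. No member's unlabelled reads were called, where 14% of genes were. Over all genes tested, labelled reads in dTAG had a median log2 fold change of -0.16 and unlabelled reads of 0.21, so labelled reads over all genes were shifted downward too, and the part of this shift in the members' values was not tested.

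In the YTHDC1 line no member was called between the arms, where 5.25% of genes were called; 3 members had an unadjusted p under 0.05, and DESeq2 called none. With the replicate block, which called 27.3% of genes, Dusp1 was lower in dTAG (-0.57, adjusted p = 0.000426), and Ier5 (0.33, adjusted p = 0.00802) and Fos (0.37, adjusted p = 0.0368) were higher. Dusp1 was at 6.83 to 16.4 CPM (median 8.81) in Ctrl and 3.50 to 12.2 (median 6.09) in dTAG and lower in 6 of 6 pairs. Fos and Ier5 were higher in 6 of 6 pairs. Without the block the adjusted p by edgeR was 0.217 for Dusp1, 0.121 for Ier5 and 0.177 for Fos.

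In the ZCCHC8 line 5 members rose and none fell, where 20.1% of genes rose and 19.5% fell. Dusp1 was at 8.26 to 14.98 CPM (median 12.6) in Ctrl and 10.8 to 29.1 (median 24.9) in dTAG, higher in 6 of 6 pairs, at a log2 fold change of 0.95 (SE 0.10, adjusted p = 5.55e-08). Ier2 was at 49.9 to 63.2 CPM (median 57.2) in Ctrl and 60.4 to 80.3 (median 68.7) in dTAG, also in 6 of 6 pairs, at 0.35 (SE 0.05, adjusted p = 1.52e-05). The highest Ctrl library of Ier2 was above the lowest dTAG library.

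Jun (0.34, SE 0.08, adjusted p = 0.0016), Ier5 (0.44, SE 0.13, adjusted p = 0.00847) and Ier3 (0.90, SE 0.28, adjusted p = 0.0144) rose too, in 5, 6 and 5 of 6 pairs. With a replicate left out each group held 1 library, so whether these calls hold in each replicate cannot be tested. Ier3 rested on 3 to 26 reads per Ctrl library. The replicate block added Junb (0.32, adjusted p = 0.00374) as higher and Egr1 (-0.41, adjusted p = 0.0386) as lower, where 45.9% of genes were called. Without the block their adjusted p was 0.0566 and 0.0812. By limma, labelled reads of Dusp1 (0.89), Ier2 (0.32) and Jun (0.32) were higher and those of Egr1 (-0.86, adjusted p = 0.0288) lower in dTAG, 4 members where 25.6% of genes were called.

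**Figure D5:**
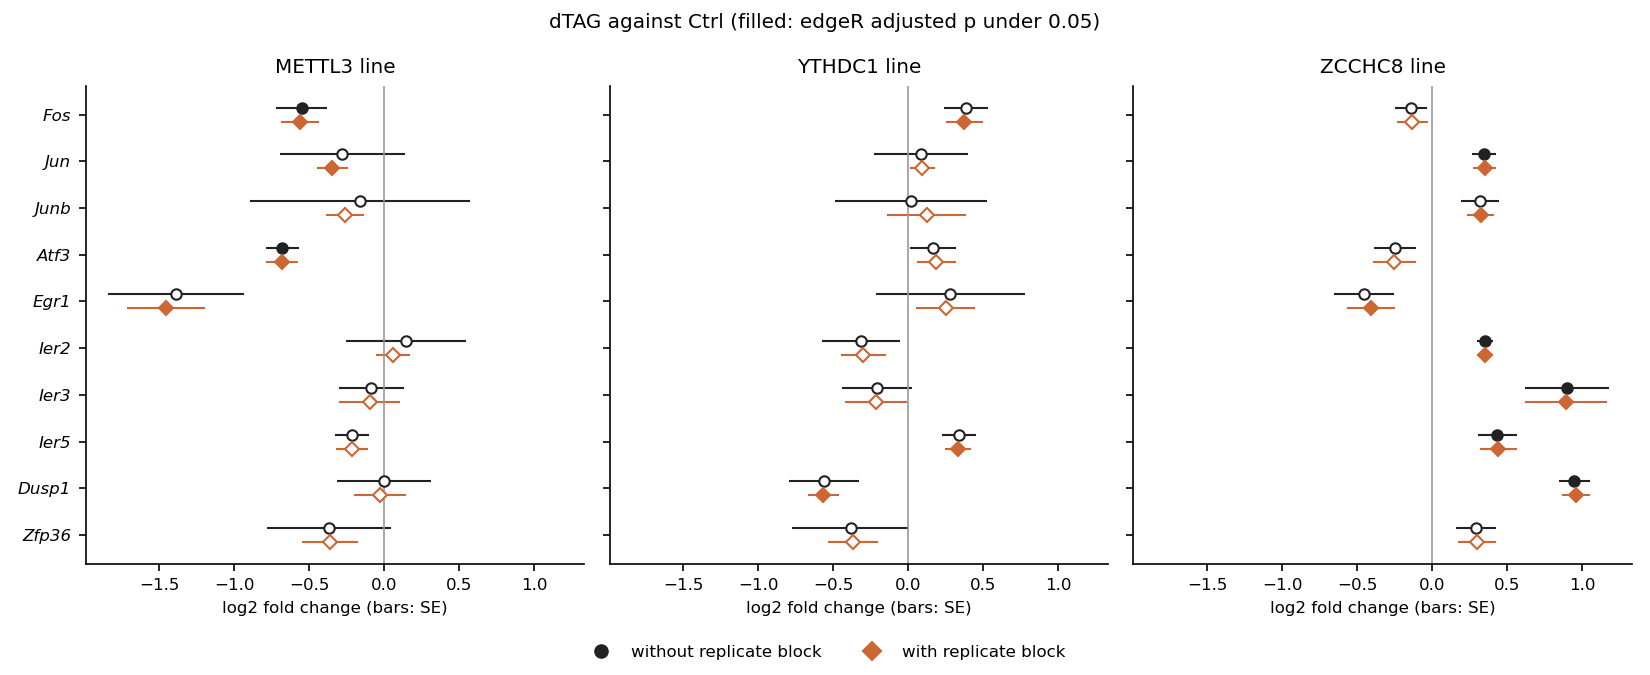
Log2 fold change of dTAG against Ctrl for each immediate early gene in each line, without (black circles) and with (orange diamonds) the replicate block, with bars of 1 SE and filled symbols for an adjusted p under 0.05 by edgeR. Fos and Atf3 are filled below 0 in METTL3 (-0.55 and -0.68), and Dusp1 is filled above 0 in ZCCHC8 (0.95).

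The effect of dTAG was compared between lines in 1 fit over the 36 libraries. Between METTL3 and YTHDC1 it differed for Fos, Atf3 and Ier5, 3 members where 16.2% of 15354 genes were called. Between ZCCHC8 and METTL3 it differed for Ier5, where 19.5% of genes were called, and between ZCCHC8 and YTHDC1 for Dusp1, by 1.39 (SE 0.39, adjusted p = 0.0215), where 11% were called. With the replicate block 6, 6 and 5 members differed in the same order, where 40.5%, 41.6% and 30.4% of genes did. The lines differ in clone and replicates as well as in the tagged protein, and these cannot be told apart. In the Ctrl arm no member's level differed between lines by edgeR, where 0.847% (METTL3 against YTHDC1), 8.94% (ZCCHC8 against METTL3) and 3.09% (ZCCHC8 against YTHDC1) of genes were called, with 0, 1 and 3 members at an unadjusted p under 0.05. With the replicate block 2, 6 and 6 members were called, where 15%, 51.6% and 45.1% of genes were.

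Loss of label was then compared between the arms by limma, as the difference in the slope of log2 ratio per hour. At a minimum of 100 reads in every library, Ier2 could be tested in all 3 lines, Jun in YTHDC1 and ZCCHC8 and Ier5 in YTHDC1. None was called, where 0.471% of genes were called in METTL3 and 0 in the others, with 578, 195 and 147 genes at an unadjusted p under 0.05. In YTHDC1 the ratio of Ier5 went from 0.868 and 0.898 at 0 min to 0.280 and 0.191 at 180 min in Ctrl, and from 0.900 and 0.927 to 0.108 and 0.129 in dTAG. The slope differed by -0.34 (SE 0.09, unadjusted p = 0.000882 and adjusted p = 0.9999), and without replicate 2 by -0.48. For Ier2 the difference was -0.15 (SE 0.09), -0.02 (SE 0.07) and 0.06 (SE 0.06) per hour in METTL3, YTHDC1 and ZCCHC8. With at least 20 reads, 7, 7 and 9 members were tested and none was called. For the ratio at 0 min no tested member was called between the arms, where 10.1%, 0.0227% and 0.069% of genes were called. For Ier2 in METTL3 the log2 difference was -0.01 (SE 0.22, adjusted p = 0.999).

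The wider response was read from 3 gene lists. Of 50 other immediate and delayed early genes, 44 were tested in every line. By 180 min 8 rose and 1 fell in METTL3, 13 rose and 4 fell in YTHDC1, and 26 rose and 7 fell in ZCCHC8, where 10.3%, 23% and 30.7% of all genes rose and 5.84%, 18% and 29.8% fell. The list's median log2 fold change was 0.31, 0.28 and 0.44, beside -0.05, -0.01 and -0.01 over all genes. Klf6, a zinc finger factor, rose in all 3 lines (1.92, 1.69 and 2.07), and so did Klf10 (0.94, 1.14 and 1.14). Between the arms 8 rose and 1 fell in METTL3, 4 and 1 in YTHDC1, and 21 and 3 in ZCCHC8, where 11.3%, 2.48% and 20.1% of all genes rose and 8.8%, 2.77% and 19.5% fell. Dusp4, an ERK phosphatase, was higher in dTAG in every line (1.06, 0.72 and 1.12), while its relative Dusp1 was called as higher in ZCCHC8 and was at 0.00 in METTL3 and -0.56 in YTHDC1, neither called.

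Of 22 genes upstream of this response (MAP kinases and the factors they reach), 1, 0 and 2 rose and 0, 0 and 7 fell in dTAG in METTL3, YTHDC1 and ZCCHC8. Over all genes 11.3%, 2.48% and 20.1% rose and 8.8%, 2.77% and 19.5% fell. The 7 in ZCCHC8 included Elk1 (-0.70), which acts with serum response factor, and the kinase gene Rps6ka3 (-0.83). By 180 min 2, 6 and 8 of the 22 genes rose and 0, 3 and 6 fell in the 3 lines. Over all genes 10.3%, 23% and 30.7% rose and 5.84%, 18% and 29.8% fell by then. Creb1, which binds the cAMP response element, rose by 180 min in every line (1.07, 0.95 and 0.91). Of 21 genes of AU-rich decay, 4, 10 and 13 rose and 1, 2 and 6 fell by 180 min, where 10.3%, 23% and 30.7% of all genes rose and 5.84%, 18% and 29.8% fell. Tia1, which binds AU-rich RNA, rose in each line (1.17, 1.19 and 1.10). Between the arms 3, 0 and 5 of the 21 genes rose and 0, 0 and 2 fell in dTAG. Over all genes 11.3%, 2.48% and 20.1% rose and 8.8%, 2.77% and 19.5% fell. The 3 in METTL3 were Zfp36l2, a relative of Zfp36 (0.91, adjusted p = 0.00827 by edgeR), Ythdf2 (0.67) and Cnot6l (0.56).

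Among 13620 other genes, the 5 whose log2 level over the 36 libraries (centred within each line) followed the mean of the 10 members most closely were Begain, Camsap3, Ctxn1, Arhgap23 and Arhgef17, at a Pearson correlation of 0.89, 0.886, 0.884, 0.883 and 0.882. The libraries share the replicate difference described above, so these values describe likeness in these libraries only. Reads of Jun and of Junos on the opposite strand, and of Zfp36 and Gm44710, come from overlapping genes, and since the use of strand in counting is not given in the sources used here, they cannot be told apart.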

How the data were processed

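Total RNA was labelled, alkylated with iodoacetamide and sequenced in pairs from a stranded total RNA library. The authors removed rRNA reads, aligned the rest to mm10 with STAR 2.5.2b, keeping unique end-to-end alignments under a mismatch limit, and estimated label with GRAND-SLAM. Each of the 6 deposited tables holds 1 line and replicate with both arms, so effects of a table and of a replicate cannot be told apart. Deposited read counts per gene, and the deposited new-to-total ratio, a fraction with its credible bounds, were used; the deposited conversion values, a score, were read for checks. Of the library columns, 252 were used and 180 were not.

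The members and the gene lists were chosen with earlier results of these data known. All 10 members were described in every comparison. From each gene list at most 3 genes per comparison could be named, those past the threshold with the smallest p, and the similar genes are the 5 with the highest correlation.

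Counts were tested in R 4.3.3 with edgeR 4.0.16 (TMM, filterByExpr, quasi-likelihood F-test, arm plus chase time within a line, and 1 fit over the 36 libraries between lines). Ratios were tested with limma 3.58.1 on log2 ratio, with a minimum ratio of 0.02 and at least 100 reads in every library of the line. Labelled and unlabelled reads are reads times the ratio and the rest, tested by limma on log2 CPM with 0.5 reads added; they, the arm difference at each time and the test of replicates were chosen after seeing the data. All p-values were adjusted over all genes tested, by Benjamini-Hochberg, at a threshold of 0.05. All SE values are of log2 differences. A level is CPM after TMM scaling, and a half-life comes from a log-linear fit of the ratio over the 3 times in each replicate; ranks of label loss use 0 and 180 min. Alternatives were DESeq2 1.42.0, its size factors in edgeR, no filter, the replicate block and each replicate left out. With a replicate left out each group keeps 1 library, so the p-values of those fits measure no spread between replicates. Ranges of adjusted p given over the alternatives leave those fits out.

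Same-numbered replicates deviated together: over 9867 genes with at least 30 reads, the correlation between groups was 0.665 to 0.956 in METTL3, 0.669 to 0.892 in YTHDC1 and 0.149 to 0.368 in ZCCHC8 (15 group pairs each), and the study's reporting notes say that a replicate's wells came from a common batch of cells, so the numbers were taken to pair libraries. Replicates differed by more than counting error (chi-square per degree of freedom 2.34 to 72.6). Scripts were tested on simulated data.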

Additional observations from a re-analysis of the deposited data

Results flagged for a closer look

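The effect of dTAG on 4 immediate early genes differed between lines by the test of the difference itself, in edgeR over the 36 libraries. For METTL3 minus YTHDC1 3 members were called, where 16.2% of all genes were. For ZCCHC8 minus METTL3 it was 1 member, where 19.5% of genes were called, and for ZCCHC8 minus YTHDC1 1 member, where 11% were. The log2 fold change of dTAG against Ctrl in METTL3 minus that in YTHDC1 was -0.96 for Fos (SE 0.22, adjusted p = 0.00352), which was lower in dTAG in 6 of 6 pairs in METTL3 and higher in 6 of 6 in YTHDC1. For Atf3 it was -0.86 (SE 0.22, adjusted p = 0.00987), with the gene lower in 6 of 6 pairs in METTL3 and higher in 4 of 6 in YTHDC1.

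Ier5 differed by -0.58 between METTL3 and YTHDC1 (SE 0.19, adjusted p = 0.0365) and by 0.60 between ZCCHC8 and METTL3 (SE 0.19, adjusted p = 0.0298). Both calls were lost with no filter on low counts (adjusted p = 0.0983 and 0.0588). Over the alternatives that keep both replicates these p ran from 0.00327 to 0.0983 and from 0.0039 to 0.0588. The differences were -0.63 and 0.70 without replicate 1, and -0.45 and 0.56 without replicate 2. Ier5 was lower in dTAG in 6 of 6 pairs in METTL3 and higher in 6 of 6 in each of the others. Dusp1 differed by 1.39 between ZCCHC8 and YTHDC1 (SE 0.39, adjusted p = 0.0215), higher in 6 of 6 pairs in the first and lower in 6 of 6 in the second. Each line is 1 clone, so clone and tagged protein cannot be told apart.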

How the results depend on the processing

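Counts of called members moved mostly with the replicate. With the replicate block, the calls between the arms went from 2 to 4 in METTL3 and from 0 to 3 in YTHDC1; those at 90 min from 1 to 3 and from 1 to 4; those at 180 min from 3 to 7 and from 3 to 6; and labelled reads at 90 min from 0 to 4 and from 0 to 8. Between lines the block gave 6 (METTL3 minus YTHDC1), 6 (ZCCHC8 minus METTL3) and 5 (ZCCHC8 minus YTHDC1) members for the dTAG effect, and 2, 6 and 6 for the Ctrl level; the block lost no call. It also raised the genes called between the arms from 2898 to 6994 (20.1% to 48.5%) in METTL3 and from 746 to 3874 (5.25% to 27.3%) in YTHDC1. The share of all genes called in these lines went from 0.243% to 10.1% and from 6.63% to 32.9% at 90 min. At 180 min it went from 16.1% to 47.3% and from 41% to 67.2%.

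Leaving out a replicate keeps 1 library in each group, so effect sizes and no calls are given here. Between the arms the members' median log2 fold change was -0.14 without replicate 1 and -0.42 without replicate 2 in METTL3. In YTHDC1 it was -0.03 and 0.02. At 180 min this median was 0.53 and 0.30 in METTL3 and 0.43 and 0.16 in YTHDC1, in the same order of replicates. At 90 min it was 0.20 and -0.05 in METTL3 and 0.38 and -0.04 in YTHDC1. For the dTAG effect between lines the median was -0.14 and -0.56 (METTL3 minus YTHDC1), 0.60 and 0.68 (ZCCHC8 minus METTL3), and 0.26 and 0.13 (ZCCHC8 minus YTHDC1). The Ctrl level without replicate 1 reversed for Ier2 (ZCCHC8 minus YTHDC1, -0.27, against 0.47 without replicate 2) and Jun (ZCCHC8 minus METTL3, -0.36 against 0.83). For label loss, leaving out replicate 2 gave a slope difference of -0.24 per hour for Ier2 in METTL3. Label at 0 min was not run without a replicate, as no residual degrees of freedom remain.

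With no filter on low counts 8 members were called between the arms in ZCCHC8 against 5, where 29% of genes were called against 39.6%. For ZCCHC8 minus METTL3 it was 0 against 1, where 9.92% of genes were called against 19.5%. DESeq2 size factors called 1 Ctrl difference (ZCCHC8 minus METTL3), where 8.94% of genes were called. A half-life at steady state from the 0 min ratio alone was 69.6, 72.5 and 51.6 min in METTL3, YTHDC1 and ZCCHC8 (8, 8 and 6 members) against 94.5, 85.8 and 122 min (10 members each). The cause of these changes was not tested. Depth limits Ier3, Egr1 and Zfp36, which at 3 to 141 reads in a library were not tested for label loss at 100 reads.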
